A study of Mus musculus with 12 samples.

Results

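The 9 genes described here set how readily blood clots on, and how fast fibrin is cleared from, a vessel wall, and were measured in liver and lung of mice 6 h after CLP. They are Thbd, Procr, F3, Tfpi, Plat, Plau, Plaur, Vwf and Adamts13. The genes were taken from a fixed list of symbols. Each symbol matched exactly 1 of the 55414 Ensembl mouse gene identifiers in the count table, so the set is 9 genes of 55414. None of the 9 overlaps an exon of another gene in the mouse annotation used.

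All mice were wild type and of the C57BL/6J strain. They had either sham surgery, the control, or CLP, the usual short form of cecal ligation and puncture, an operation in which gut contents leak from the punctured cecum and which serves as a sepsis model. The labels give the short form only. Whole liver and whole lung were taken 6 h later, and total RNA of each was sequenced with a stranded kit, giving 4 groups of 3 libraries (sham liver, CLP liver, sham lung, CLP lung). The labels do not say whether each library came from a separate mouse or whether a liver and a lung came from the same mouse, nor the age or sex of the mice. P-values therefore measure the spread between these libraries, which may be technical in part.

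As background, clotting starts when tissue factor, the product of F3, meets factor VII of the blood. Tfpi makes the inhibitor of that step. Thrombomodulin, made from Thbd, binds thrombin on the endothelial surface and turns it toward the activation of protein C, an anticoagulant, and the endothelial protein C receptor, made from Procr, presents protein C to that complex. Tissue plasminogen activator (Plat) and urokinase (Plau) make plasmin, which cuts fibrin, and Plaur is the cell-surface receptor that holds urokinase. Von Willebrand factor (Vwf) is stored in endothelial Weibel-Palade bodies and tethers platelets, and Adamts13 makes the protease that shortens its long strings. In sepsis these systems are known to shift in the vessels of liver and lung. In tissue RNA, fewer cells of a type and less RNA per cell cannot be told apart, and that holds for every level below.

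Totals ran from 10559895 to 15854117 counts per library, and 3 counts in a library, taken here as the floor of detection, came to 0.179 to 0.308 CPM. CPM are counts scaled to the size of their library, here adjusted between the libraries of each organ. Levels are in CPM, and differences are log2 fold changes with their standard error (SE), tested by edgeR's quasi-likelihood test with Benjamini-Hochberg adjustment over all genes tested and called below an adjusted p of 0.05. A list of 12 pan-endothelial markers, among them Pecam1, Cdh5 and Kdr, was detected in each of the 4 groups. Their summed level was 180.8 to 198.5 CPM in sham liver, 214.3 to 241.3 CPM in CLP liver, 4459 to 4837 CPM in sham lung and 4031 to 4439 CPM in CLP lung. Cdh5 alone made up 17.0% of the mean sum in sham liver and 43.1% in CLP liver, and the other 11 markers summed to 147.6 to 163.6 and 122.2 to 140.7 CPM. In lung Cdh5 made up 24.1% in sham and 33.7% in CLP, and the other 11 summed to 3370 to 3701 and 2721 to 2933 CPM. The count table does not say which cells made the transcripts of the 9 genes.

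The 9 genes did not move as a block. After CLP in liver, Thbd, Procr, Plat and Plaur rose and F3 fell, while Tfpi, Plau, Vwf and Adamts13 did not pass the test. In lung, Procr, F3, Plat and Plaur rose and Thbd, Tfpi and Vwf fell, Plau did not pass the test, and Adamts13 had too few counts to be tested. The lung calls of Procr and Tfpi and the liver call of Plat were lost in some omissions of a single library, given below. So 4 of 9 were higher and 1 of 9 lower in liver, where 21.4% of the 12392 genes tested were called higher and 21.0% lower. In lung 4 of the 8 tested were higher and 3 lower, against 23.9% higher and 24.9% lower of 15441 genes. The same shares apply to the counts of every partner and marker list below. A count near them does not set a list apart from all genes tested. The median log2 fold change of the 9 was 0.12 in liver and that of the 8 was 0.48 in lung, beside -0.01 and -0.03 over all genes tested.

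**Figure D1:**
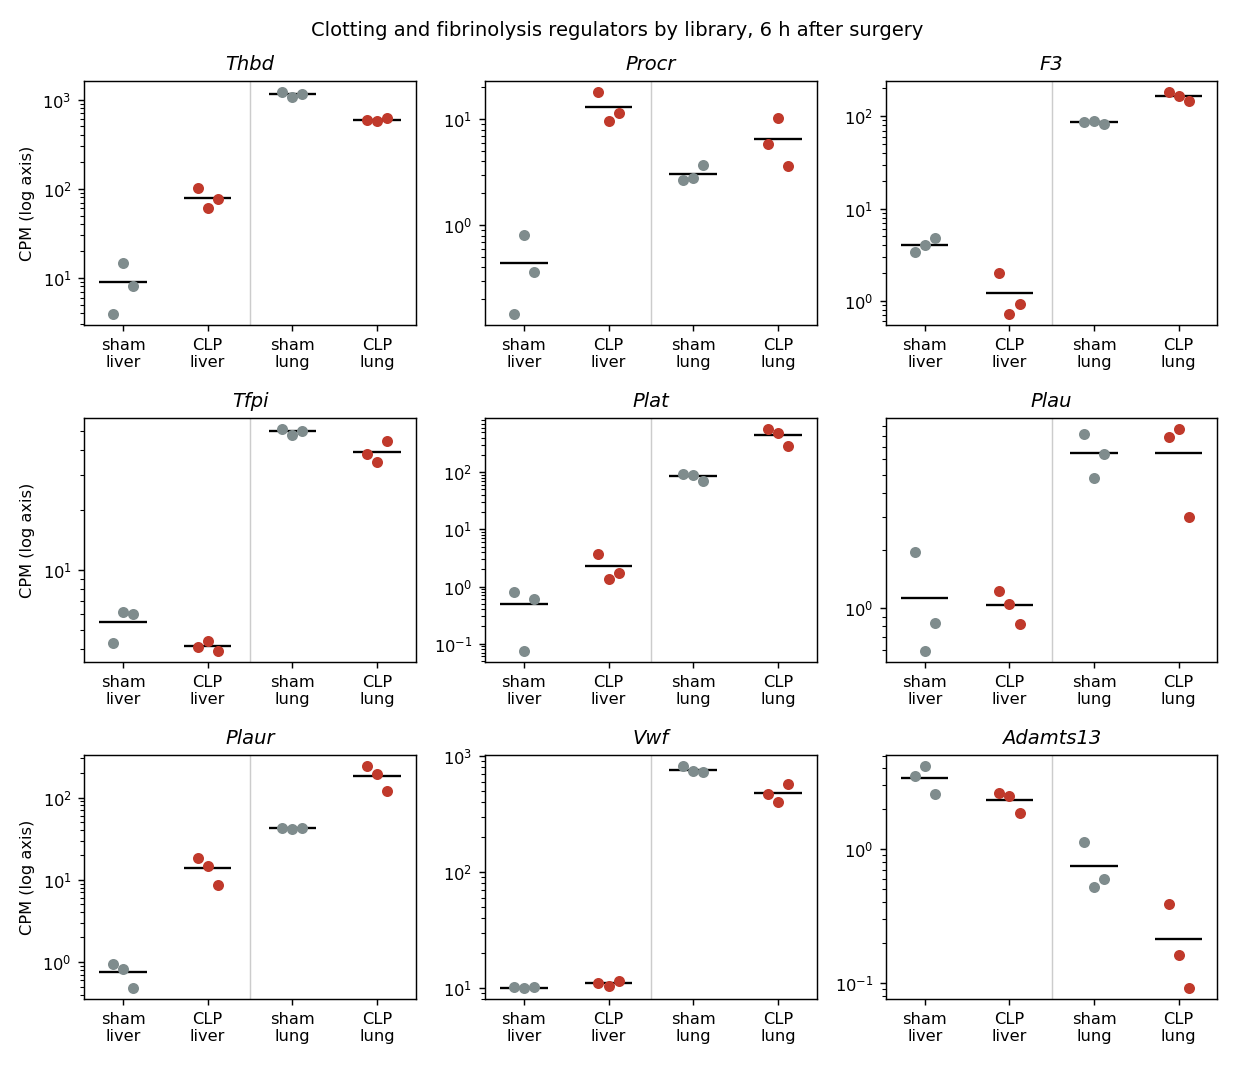
Level of each of the 9 genes in each of the 12 libraries, in CPM on a log axis with a different range in each panel. Points are libraries and bars are the means of 3 libraries. Thbd points lie higher in CLP than in sham liver and lower in CLP than in sham lung, and F3 points do the reverse.

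Promoter sequence was at hand for 5 of the 9 genes in the RefSeq table used (build GRCm38.p6): F3, Procr, Plaur, Tfpi and Adamts13. Thbd, Plat, Plau and Vwf were not matched. The 250 bases before the start are shown for F3, Procr and Plaur. These 3 genes were chosen because they were called in both organs and because each window holds the AP-1 motif TGANTCA, marked in capitals. That motif is the element bound by Fos and Jun proteins. F3 fell in liver and rose in lung, Procr and Plaur rose in both organs, and the lung call of Procr was not stable. Sequences read 5′ to 3′ along the gene.
F3, chr3:121723287-121723536, plus strand: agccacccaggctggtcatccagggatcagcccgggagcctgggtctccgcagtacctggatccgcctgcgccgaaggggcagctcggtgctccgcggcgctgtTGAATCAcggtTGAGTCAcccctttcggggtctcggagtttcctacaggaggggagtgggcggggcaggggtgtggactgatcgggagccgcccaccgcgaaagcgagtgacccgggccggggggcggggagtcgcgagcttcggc
Procr, chr2:155750967-155751216, plus strand: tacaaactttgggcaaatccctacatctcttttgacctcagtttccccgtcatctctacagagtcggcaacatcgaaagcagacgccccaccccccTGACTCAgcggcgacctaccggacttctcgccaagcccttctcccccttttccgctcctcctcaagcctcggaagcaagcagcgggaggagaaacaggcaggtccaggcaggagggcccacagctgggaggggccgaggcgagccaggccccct
Plaur, chr7:24462233-24462482, plus strand: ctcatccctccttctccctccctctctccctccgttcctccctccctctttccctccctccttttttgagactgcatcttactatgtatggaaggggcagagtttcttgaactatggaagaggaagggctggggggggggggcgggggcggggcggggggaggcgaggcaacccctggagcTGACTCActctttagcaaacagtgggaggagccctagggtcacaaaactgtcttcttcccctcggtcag
The F3 window holds 2 AP-1 matches, which begin 146 and 135 bases before the gene's start. Procr has 1 match, 154 bases before the start, and Plaur has 1, 69 bases before it. Neither of the windows of Tfpi nor the window of Adamts13 has a match. Searched on both strands over 250 bases before to 50 bases after the start, 7.81% of the 32851 promoters in the table hold at least 1 AP-1 match and 0.46% hold at least 2. The SP1 motif GGGCGG was found 3 times in F3 and 3 times in Plaur, where the last 2 overlap, and not in Procr, and 35.7% of all promoters hold it. The NF-kB consensus was searched only as GGGRNNYYCC, where R is A or G and Y is C or T. It was found in Adamts13 alone of the 5 genes, and 8.46% of all promoters hold it. The Adamts13 match begins 1 base after the gene's start. Sites that depart from this pattern were not searched, so no match in F3, Procr, Plaur or Tfpi does not show that such a site is absent. A match describes the letters of the window and does not show that a factor binds there. Since the 3 windows were chosen for the motif and for calls in these same data, the shares over all promoters are no test of them. A link between AP-1 and the changes of these genes was not tested.

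Tissue factor moved in opposite directions in the organs. In sham liver, F3 stood at 3.41, 3.998 and 4.78 CPM in the 3 libraries, and in CLP liver at 2.00, 0.721 and 0.923 CPM. The groups did not overlap, and the 3 CLP libraries held 26, 9 and 9 counts of the gene. The log2 fold change in liver was -1.72 (SE 0.36, edgeR adjusted p = 0.00593). In lung the gene was more abundant, at 86.4, 89.0 and 83.0 CPM in sham and 182, 165 and 147 CPM in CLP. These levels are on each organ's own scale. With 1 scale for all libraries, the sham means of F3 were 6.54 CPM in liver and 53.98 CPM in lung. Every CLP lung lay above every sham lung, with a log2 fold change of 0.94 (SE 0.09, edgeR adjusted p = 0.00018). The difference between the organs, lung change minus liver change, was 2.62 (SE 0.31, edgeR adjusted p = 0.000132), and so was itself past the threshold.

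Tfpi, the inhibitor of the tissue factor step, changed little. Its sham liver levels were 4.29, 6.14 and 5.98 CPM and its CLP liver levels 4.07, 4.41 and 3.90 CPM, groups that overlapped. The log2 fold change in liver was -0.41 (SE 0.20, edgeR adjusted p = 0.131), and with libraries scaled by their totals alone it was -0.59 with an edgeR adjusted p of 0.0365. In lung the 3 sham libraries had 51.1, 47.9 and 50.3 CPM and the 3 CLP libraries 38.2, 35.1 and 44.7 CPM, without overlap. Tfpi fell by 0.34 on the log2 scale in lung (SE 0.10, edgeR adjusted p = 0.0223). That call was lost when sham lung replicate 1, sham lung replicate 3, CLP lung replicate 1 or CLP lung replicate 2 was left out (log2 fold change -0.23 to -0.40 over the 6 omissions, adjusted p up to 0.0885). The lung change minus the liver change was 0.04 (SE 0.20, edgeR adjusted p = 0.958).

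The ratios of F3 to Tfpi and to Thbd were taken within each library, free of scaling between libraries. They compare transcripts of whole tissue, and the genes of a ratio may come from different cells. Per base of exon, F3 to Tfpi was 3.66, 4.02 and 3.57 in sham lung and 10.3, 10.15 and 7.13 in CLP lung. In liver it was 1.72, 1.41 and 1.73 in sham and 1.06, 0.354 and 0.512 in CLP. The ratio was thus higher in each CLP lung and lower in each CLP liver than in any sham library of the same organ. F3 to Thbd, also per base of exon, was 0.105, 0.122 and 0.106 in sham lung against 0.453, 0.421 and 0.348 in CLP lung. In sham liver it was 1.28, 0.398 and 0.880, and in CLP liver 0.0288, 0.0175 and 0.0179. These ratios are values of single libraries with no test of their own, and both terms were tested above or below.

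**Figure D2:**
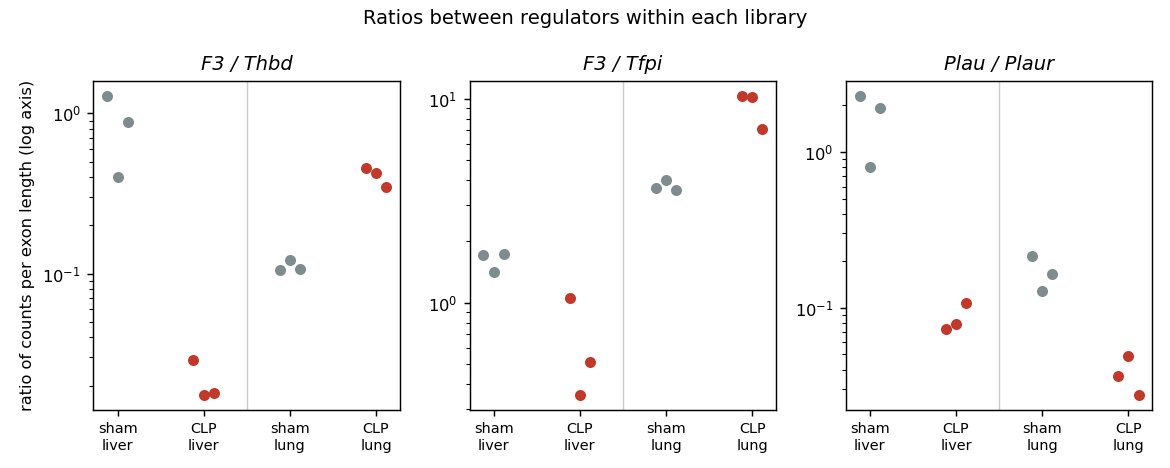
Ratio of 2 genes within each library, in counts per base of exon, on a log axis with a different range in each panel. Points are the 3 libraries of each group. F3 to Thbd and F3 to Tfpi are higher in CLP than in sham lung and lower in CLP than in sham liver, and Plau to Plaur is lower after CLP in both organs.

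Thrombomodulin showed the mirror image of F3. Thbd was at 3.92, 14.8 and 8.01 CPM in sham liver and at 102, 60.7 and 76.0 CPM in CLP liver. The lowest CLP liver was well above the highest sham liver, although the sham livers were widely spread. The log2 fold change was 3.16 (SE 0.46, edgeR adjusted p = 0.00235). Sham lungs held 1213, 1075 and 1153 CPM of Thbd and CLP lungs 593, 576 and 624 CPM. Thbd fell by 0.94 on the log2 scale in lung (SE 0.09, edgeR adjusted p = 0.000196), with no overlap between groups. The lung minus liver difference was -4.13 (SE 0.46, edgeR adjusted p = 0.000141).

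Relative to the summed pan-endothelial markers of the same library, Thbd was 2.17% to 7.46% in sham liver and 25.1% to 44.1% in CLP liver. In lung it was 23.9% to 25.1% in sham and 12.97% to 15.5% in CLP. The markers themselves did not move together: in liver 4 of 12 rose and 3 fell, and in lung 4 of 12 rose and 6 fell. Among all genes tested, 21.4% rose and 21.0% fell in liver, and 23.9% rose and 24.9% fell in lung. Of the 10 markers of liver sinusoidal endothelium, such as Stab2, all 10 fell in liver, and their summed level went from 406 to 505 CPM in sham to 209 to 283 CPM in CLP. Of the 10 markers of lung capillary endothelium, 5 fell in lung and none rose, with sums of 3382 to 4146 CPM in sham and 1721 to 2806 CPM in CLP. Among the 8 alveolar type 1 markers, 6 also fell in lung and none rose, with sums of 5897 to 6314 CPM in sham and 3237 to 4554 CPM in CLP. The part of these marker changes in the changes of Thbd, Vwf and F3 was not tested.

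Procr, the receptor that works beside thrombomodulin, rose in both organs and more in liver. It was barely detected in sham liver, with 2, 11 and 6 counts (0.145, 0.814 and 0.359 CPM), and stood at 18.1, 9.70 and 11.4 CPM in CLP liver. The groups lay far apart, and the log2 fold change was 4.89 (SE 0.45, edgeR adjusted p = 0.000175). From summed counts the CLP to sham ratio was 30.7, with an exact 95% interval of 19.4 to 51.4 that covers counting error only. Sham lungs had 2.68, 2.77 and 3.73 CPM and CLP lungs 5.82, 10.3 and 3.64 CPM, so that the lowest CLP lung fell among the sham lungs. The lung log2 fold change was 1.11 (SE 0.37, edgeR adjusted p = 0.0385). This lung call was not stable. It was lost in 5 of the 6 omissions of a single library, all but that of CLP lung replicate 3 (log2 fold change 0.67 to 1.43, adjusted p up to 0.115), and the value was 0.67 without CLP lung replicate 2. It was also lost with library totals (adjusted p = 0.053), upper-quartile scaling (0.0542), limma-voom (0.0618) and the replicate block (0.0578). The lung change minus the liver change was -3.82 (SE 0.67, edgeR adjusted p = 0.00202).

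Of 13 partners of thrombin and protein C (protein C and protein S themselves, antithrombin, thrombin receptors and related genes), 9 were tested in liver and 10 in lung. Of these 1 rose in liver and 2 in lung, none fell, and none of 11 differed in response between the organs. Over all genes tested, 21.4% rose and 21.0% fell in liver, and 23.9% rose and 24.9% fell in lung. The lung minus liver difference was called above 0 for 8.89% of all genes and below 0 for 8.84%. Beside these shares, the lack of a call among 11 partners does not show that the organs responded alike. Klf2, a flow-responsive factor known to drive Thbd in endothelium, rose in liver from 6.12 ± 1.21 to 13.8 ± 0.723 CPM (SD, n = 3 libraries each; log2 fold change 1.17). In lung Klf2 went from 155 ± 59.3 to 295 ± 55.6 CPM (SD, n = 3), a log2 fold change of 0.92 whose call was lost in 3 of the 6 omissions of a single library and with 4 of the 8 other settings. Tfpi2, a relative of Tfpi, rose in lung by 1.04 on the log2 scale from 2.07 CPM, a call lost in 3 of the 6 omissions, and had a log2 fold change of -0.01 in liver. Gas6 (0.34 in liver, -0.33 in lung) and Serpind1, which makes heparin cofactor II (-0.27 and -0.16), did not pass the test in either organ.

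Among the genes of fibrin clearance, Plat and Plaur rose in both organs while Plau did not pass the test in either. Plat, the tissue plasminogen activator, was at 94.1, 88.9 and 71.3 CPM in sham lung and at 562, 480 and 286 CPM in CLP lung. All CLP lungs exceeded all sham lungs, with a log2 fold change of 2.38 (SE 0.25, edgeR adjusted p = 0.000371). Liver held little of it: 11, 1 and 10 counts in sham (0.799, 0.0740 and 0.598 CPM) and 49, 17 and 17 counts in CLP (3.77, 1.36 and 1.74 CPM). The liver log2 fold change was 2.20 (SE 0.62, edgeR adjusted p = 0.0234), a call lost without sham liver replicate 3 (2.37, adjusted p = 0.0596) and without CLP liver replicate 1 (1.62, adjusted p = 0.0777). The lung minus liver difference was 0.14 with an SE of 0.82 (edgeR adjusted p = 0.962), too imprecise to show that the organs responded alike.

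Transcripts of lung epithelium were found in the liver libraries, more so after CLP. The median of Sftpc, Sftpb and Ager in a liver library came to 0.00246% to 0.0169% of their mean level in lung for sham and 0.0521% to 0.108% for CLP. A lung share of that size would bring 0.231 to 0.477 CPM of Plat to the CLP livers, which measured 1.36 to 3.77 CPM. It would bring 0.312 to 0.645 CPM of Thbd, against 60.7 to 102 CPM measured. For F3, which fell in liver, it would bring 0.0859 to 0.178 CPM to the 0.721 to 2.00 CPM measured.

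Urokinase, Plau, was at 1.961, 0.592 and 0.837 CPM in sham liver and 1.23, 1.04 and 0.821 CPM in CLP liver. Its lung levels were 8.197, 4.78 and 6.41 CPM in sham and 7.84, 8.64 and 3.00 CPM in CLP. The groups overlapped in both organs. The log2 fold change was -0.10 in liver (SE 0.47, edgeR adjusted p = 0.876) and 0.02 in lung (SE 0.38, edgeR adjusted p = 0.97), and the lung minus liver difference was 0.09 (SE 0.67, edgeR adjusted p = 0.977). These SEs leave room for a change in either direction.

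The urokinase receptor behaved otherwise. Plaur stood at 0.944, 0.814 and 0.478 CPM in sham liver and 18.5, 14.6 and 8.51 CPM in CLP liver, a log2 fold change of 4.24 (SE 0.37, edgeR adjusted p = 0.000136). In lung it went from 42.2, 41.3 and 43.2 CPM to 239, 194 and 121 CPM, a log2 fold change of 2.13 (SE 0.23, edgeR adjusted p = 0.000426). No CLP library overlapped a sham library of its organ. The lung minus liver difference was -2.15 (SE 0.52, edgeR adjusted p = 0.0143), and this call was lost without the low-count filter (adjusted p = 0.0733), with limma-voom (0.0602) and without sham liver replicate 3 (-1.83, adjusted p = 0.0616). The ligand to receptor ratio, Plau to Plaur per base of exon, was 2.30, 0.804 and 1.94 in sham liver and 0.0734, 0.0790 and 0.107 in CLP liver. In lung it was 0.215, 0.128 and 0.164 in sham and 0.0363, 0.0492 and 0.0275 in CLP.

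Plaur is also a gene of neutrophils and monocytes, and markers of both moved. All 10 neutrophil markers tested in liver rose, as did all 12 in lung. In liver Lcn2, which hepatocytes also make in the acute phase, held 98.9% of the summed level in sham and 96.7% in CLP. The other 11 neutrophil markers summed to 17.9 to 20.1 CPM in sham liver and 171.9 to 247 CPM in CLP liver. The lung sum of all 12 was 1190 to 1336 CPM in sham and 9760 to 15030 CPM in CLP. The neutrophil marker Camp was at 0 in all 3 sham livers and no marker was at 0 in the other groups. Of 10 monocyte markers 6 rose and 1 fell in liver. There Fn1, which hepatocytes also make, held 98.2% of the sum in sham and 97.8% in CLP, and the other 9 summed to 66.8 to 86.6 and 89.98 to 97.7 CPM. In lung 9 of 10 rose, and the sum went from 1601 to 1742 up to 2649 to 3272 CPM. Chil3 held 46.9% of that sum in sham and 37.4% in CLP lung. The other 9, Fn1 among them, summed to 776 to 1000 CPM in sham and 1640 to 2003 CPM in CLP lung. Macrophage markers were mixed, with 2 of 11 higher and 6 lower in liver and 5 of 10 higher and 2 lower in lung. The shares over all genes tested were 21.4% higher and 21.0% lower in liver, and 23.9% and 24.9% in lung. The part of these cells in the changes of Plaur, Plat and F3 was not tested.

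The inhibitors of fibrinolysis and the receptors of plasminogen formed a list of 13 genes. In liver 3 of 12 tested rose and none fell, and 5 of 11 rose and 1 fell in lung. Among all genes tested, 21.4% rose and 21.0% fell in liver, and 23.9% rose and 24.9% fell in lung. The lung minus liver difference passed the test above 0 for 1 of 13 and below 0 for 1, beside 8.89% and 8.84% of all genes. Serpinb2, a serpin that inhibits Plau, held 4 counts over the 3 sham lung libraries and 80 over the 3 CLP lung libraries. Its level in lung went from 0.108 ± 0.187 to 2.14 ± 1.34 CPM (SD, n = 3), a log2 fold change of 4.28 (SE 0.94, edgeR adjusted p = 0.00715), with each CLP library above each sham library. All 4 sham counts were in sham lung replicate 1. Without it the fitted value was 7.78 against sham libraries at 0, a value that depends on the prior count, and the other 5 omissions gave 3.71 to 4.68, with the call kept in each of the 6. It was too low in liver to be tested. Serping1, the gene of C1 inhibitor, went from 907 ± 37.3 to 1138 ± 28.3 CPM in liver (SD, n = 3), a log2 fold change of 0.33 (SE 0.11, edgeR adjusted p = 0.0437), and that call was lost in each of the 6 omissions of a single library and with 4 of the 8 other settings.

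Anxa2, which holds plasminogen and Plat at the cell surface, rose by 1.72 on the log2 scale in liver and 0.49 in lung, and its lung minus liver difference was -1.26 (SE 0.24, edgeR adjusted p = 0.00291). Its partner S100a10 (0.63) and the plasminogen receptor Plgrkt (0.66) rose in lung and did not pass the test in liver (0.64 and 0.56). Their lung minus liver differences, -0.03 (edgeR adjusted p = 0.995) and 0.08 (edgeR adjusted p = 0.907), did not pass the test. In liver the call was gained with 1 of the 8 other settings for S100a10 and with 3 for Plgrkt. Cpb2, the precursor of a carboxypeptidase that slows fibrin lysis, rose by 0.45 in liver, a call lost with 2 of the 8 other settings, and was too low in lung to be tested.

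Von Willebrand factor fell in lung and was near its sham level in liver. Sham lungs held 811, 736 and 729 CPM of Vwf and CLP lungs 465, 402 and 568 CPM, without overlap. Vwf fell by 0.66 on the log2 scale (SE 0.13, edgeR adjusted p = 0.00424). In liver the sham libraries had 10.2, 9.92 and 10.1 CPM and the CLP libraries 11.1, 10.4 and 11.4 CPM. These groups did not overlap, but the log2 fold change of 0.12 (SE 0.12, edgeR adjusted p = 0.439) did not pass the test, and it was -0.07 with library totals alone, where the groups overlapped. For Vwf, lung change minus liver change was -0.81 (SE 0.18, edgeR adjusted p = 0.00627). Relative to the pan-endothelial sum of its library, Vwf was 15.1% to 16.8% in sham lung and 9.06% to 14.1% in CLP lung. Cdh5 held more of that sum in CLP than in sham lung, and the other 11 markers summed to less. Shares of Vwf relative to those 11 alone were not taken.

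Adamts13, made mainly by hepatic stellate cells, was at 3.49, 4.15 and 2.57 CPM in sham liver and 2.61, 2.49 and 1.85 CPM in CLP liver. The groups overlapped, and the log2 fold change of -0.53 (SE 0.26, edgeR adjusted p = 0.135) did not pass the test. Of 10 stellate cell markers, 1 rose and 2 fell in liver, and their sums were 299 to 364 CPM in sham and 323 to 343 CPM in CLP. Lung held 14, 7 and 8 counts of Adamts13 in sham and 5, 2 and 1 in CLP, so that 2 of the 3 CLP lungs lay under the 3-count floor. From summed counts the lung ratio of CLP to sham was 0.298, with an exact 95% interval of 0.118 to 0.667 for counting error only. The gene did not pass the low-count filter in lung. It was called lower there when no filter was used (log2 fold change -1.73, edgeR adjusted p = 0.03) and in the model of all 12 libraries (-1.72, edgeR adjusted p = 0.0198). Between organs the Adamts13 changes differed by -1.19, lung minus liver (SE 0.61, edgeR adjusted p = 0.211). In liver, Vwf to Adamts13 per base of exon was 0.894, 0.734 and 1.21 in sham and 1.298, 1.29 and 1.89 in CLP.

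The 14 partners of Vwf, mostly contents and release machinery of Weibel-Palade bodies, gave 6 higher and 2 lower of 12 tested in liver and 3 higher and 3 lower of 14 in lung. Over all genes tested, 21.4% were higher and 21.0% lower in liver, and 23.9% and 24.9% in lung. By the test of the difference, the lung minus liver value was below 0 for 3 of 14 and above 0 for none. The shares over all genes were 8.84% below 0 and 8.89% above 0. Selp, the P-selectin stored beside Vwf and also in platelets, rose from 1.31 ± 0.322 to 36.2 ± 5.40 CPM in liver (log2 fold change 4.77) and from 5.70 ± 0.777 to 65.8 ± 31.4 CPM in lung (3.53; SD, n = 3 each). Angpt2, another stored product that loosens the endothelium, rose by 3.50 on the log2 scale in liver and had -0.45 in lung, where it did not pass the test. The difference for Angpt2 was -3.99 (SE 0.51, edgeR adjusted p = 0.000288). Edn1, the precursor of endothelin-1, rose by 2.86 in liver and had 0.47 in lung, which did not pass the test, with a difference of -2.44 (edgeR adjusted p = 0.00682). Both genes were low in sham liver. Mean Angpt2 went from 1.08 to 12.04 CPM in liver, beside 27.58 CPM in sham lung. Mean Edn1 went from 0.383 CPM, 17 counts over 3 libraries, to 2.82 CPM in liver, beside 42.11 CPM in sham lung. Those CPM are on each organ's own scale. With 1 scale for all libraries, sham lung exceeded sham liver by 3.34 for Angpt2 and 5.39 for Edn1 on the log2 scale. Cd63, a membrane protein of these bodies and of other vesicles, rose by 1.66 in liver, a call lost in 5 of the 6 omissions of a single library (adjusted p up to 0.0799), and by 0.70 in lung. Thbs1, a thrombospondin of platelets and other cells, rose by 4.71 in liver and 3.13 in lung. The lung minus liver differences of Selp (-1.28, edgeR adjusted p = 0.138), Cd63 (-0.998, edgeR adjusted p = 0.164) and Thbs1 (-1.61, edgeR adjusted p = 0.266) did not pass the test.

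Of 10 platelet markers 3 could be tested in liver, where Pf4 rose by 2.05 on the log2 scale and Clec1b fell by 0.92. Clec1b held 75.8% of the summed level in sham liver and 40.5% in CLP liver. The other 9 summed to 2.15 to 3.63 CPM in sham liver and 5.54 to 10.4 CPM in CLP liver, while the sum of all 10 was 11.1 to 14.7 and 10.7 to 14.3 CPM. In lung 3 of 9 tested rose and none fell, with sums of 33.8 to 46.7 and 51.5 to 87.0 CPM. Gp1bb was at 0 in all libraries of sham liver, CLP liver and CLP lung, and Gp1ba, Gp6 and Tubb1 were at 0 in sham liver. Their part in the changes of Selp and Thbs1 was not tested.

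The clotting factors of plasma were a list of 15 genes, most of them made mainly by hepatocytes. They gave 3 higher and 2 lower of 15 in liver and 3 higher and 1 lower of 10 tested in lung. Among all genes tested, 21.4% were higher and 21.0% lower in liver, and 23.9% and 24.9% in lung. By the test of the difference, the lung minus liver value was above 0 for 3 of 15 and below 0 for none, beside 8.89% and 8.84% of all genes. F7, the partner of tissue factor, fell by 0.70 on the log2 scale in liver from 84.6 ± 10.5 to 52.3 ± 10.2 CPM (SD, n = 3) and did not pass the test in lung (0.14). The difference for F7 was 0.81 (edgeR adjusted p = 0.0144). F10, the zymogen that tissue factor and factor VII activate, went from 6.57 ± 0.775 to 166 ± 80.6 CPM in lung (SD, n = 3), a log2 fold change of 4.66 (SE 0.46, edgeR adjusted p = 0.00048). In liver, where it was at 319 ± 34.1 CPM in sham (SD, n = 3), F10 had a log2 fold change of 0.14 that did not pass the test, and the difference was 4.50 (SE 0.44, edgeR adjusted p = 5.46e-05). F5, the cofactor of factor X, rose by 2.25 in lung and had -0.13 in liver, with a difference of 2.36 (edgeR adjusted p = 0.000181). F13a1, the fibrin cross-linking subunit that also marks monocytes and macrophages, rose by 4.31 in liver and 2.90 in lung. F8, made by endothelium and carried by Vwf, fell by 0.72 in liver and by 0.97 in lung, the latter lost in 4 of the 6 omissions of a single library and with 1 of the 8 other settings. The lung minus liver differences of F13a1 (-1.45, edgeR adjusted p = 0.131) and F8 (-0.28, edgeR adjusted p = 0.618) did not pass the test.

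**Figure D3:**
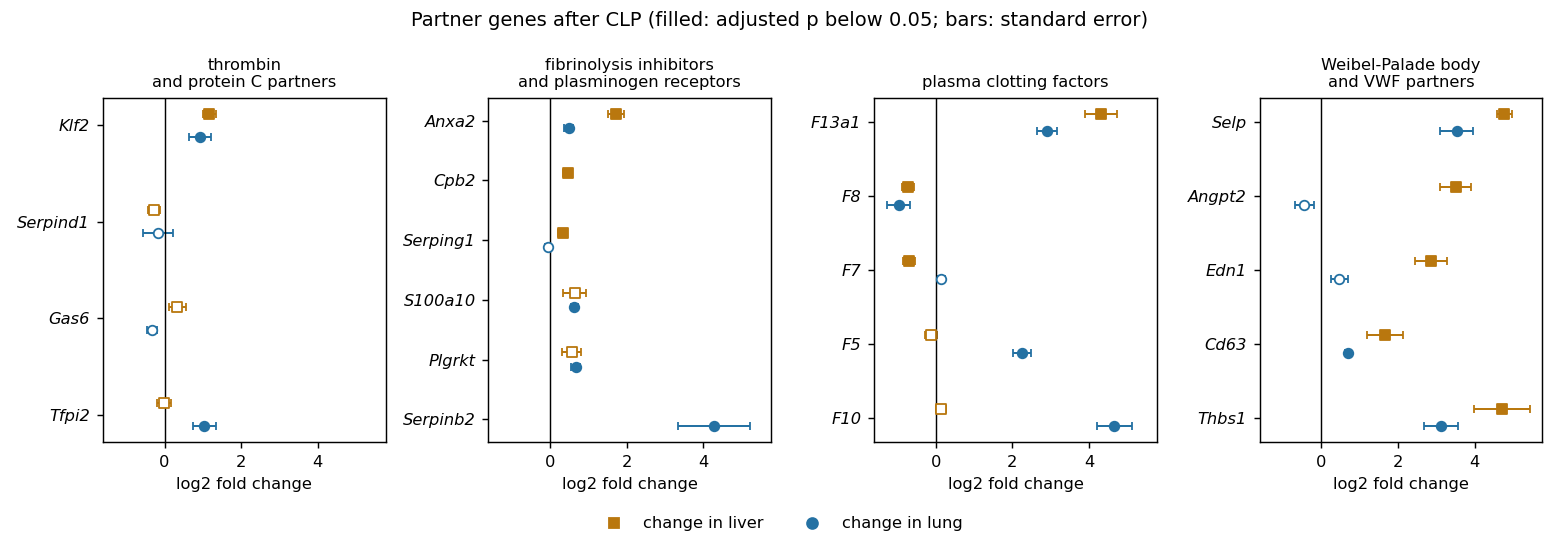
Log2 fold change of CLP against sham for the partner genes named from 4 lists, with squares for liver and circles for lung. Bars are standard errors and filled symbols passed an edgeR adjusted p of 0.05. F10 and F5 moved in lung and did not pass the test in liver, and Angpt2 and Edn1 moved in liver and did not pass the test in lung.

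Set side by side, the organs differed in their response for 5 of the 9 genes. The signed difference, lung log2 change minus liver log2 change, was above 0 for F3 and below 0 for Thbd, Procr, Plaur and Vwf. That is 1 of 9 above 0 and 4 of 9 below 0, where 8.89% and 8.84% of 16111 genes were called in those directions. The median lung minus liver difference was -0.81 over the 9 genes and 0.00 over all genes tested. For F3 and Thbd the signs of the change were opposite in the organs and both changes passed the test. Procr and Plaur had increases in both organs, although the lung groups of Procr overlapped and its lung call was not stable. For Vwf only the lung change passed. The 4 that did not pass, Tfpi, Plat, Plau and Adamts13, had SEs of 0.20, 0.82, 0.67 and 0.61 on this difference.

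**Figure D4:**
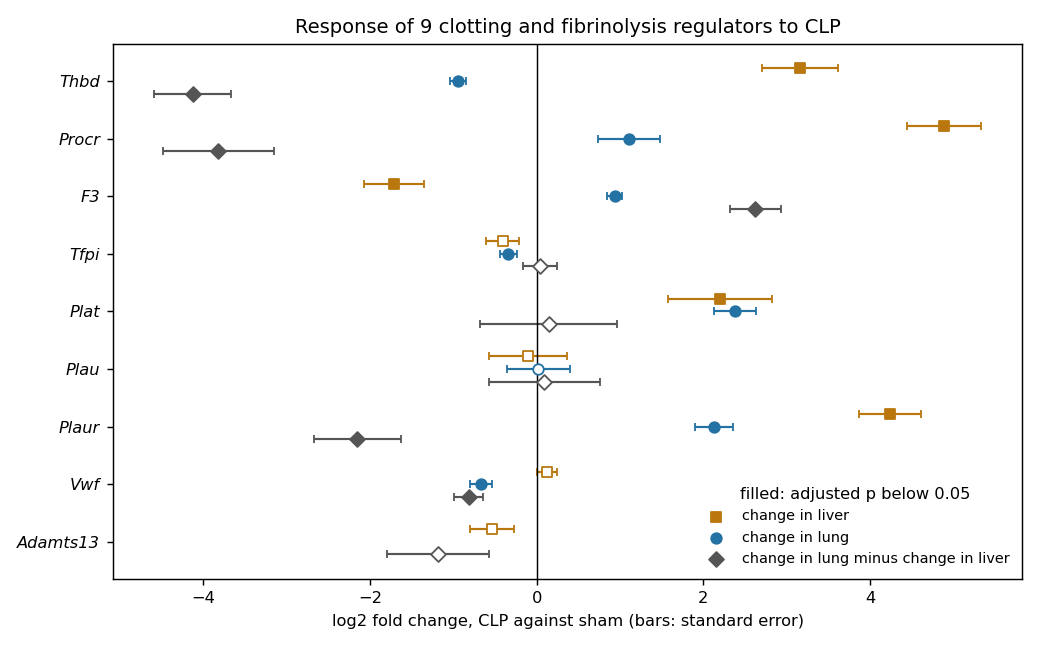
Log2 fold change of CLP against sham in liver (squares) and lung (circles) and the lung minus liver difference (diamonds) for the 9 genes. Bars are standard errors and filled symbols passed an edgeR adjusted p of 0.05. The differences of Thbd, Procr, Plaur and Vwf lie below 0 and that of F3 above 0; Adamts13 has no lung value.

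In the absence of CLP the genes already differed between organs. In sham mice 8 of the 9 were higher in lung than in liver and Adamts13 was lower, where 44.4% of 16111 genes were called higher and 36.5% lower. The log2 difference was 6.04 for Plat, 5.65 for Thbd, 4.88 for Vwf, 4.49 for Plaur, 3.04 for F3, 1.82 for Tfpi, 1.45 for Procr and 1.16 for Plau, and -3.52 for Adamts13. Scaling across organs is an assumption. With library totals alone these values were higher, for example 6.99 for Thbd and -2.21 for Adamts13, and the median over all genes went from 0.19 to 1.497. The calls for Procr (adjusted p = 0.0362) and Plau (0.029) by edgeR were each lost in 4 of the 12 omissions of a single library, and that for Procr also without the low-count filter. All 12 pan-endothelial markers were higher in sham lung as well, with a median log2 difference of 3.31.

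The order of the 4 groups, by mean CPM on each organ's own scale, differed from gene to gene. Thbd and Vwf ran sham liver, CLP liver, CLP lung, sham lung from low to high, and Tfpi ran CLP liver, sham liver, CLP lung, sham lung. Plat and Plaur ran sham liver, CLP liver, sham lung, CLP lung, so that no CLP liver reached a sham lung on that scale; with 1 scale for all libraries, Plaur in CLP liver overlapped sham lung. F3 ran CLP liver, sham liver, sham lung, CLP lung. Procr alone had its highest mean in CLP liver, above CLP lung (13.05 ± 4.42 and 6.57 ± 3.38 CPM, SD, n = 3), although these groups overlapped on the organs' own scales. Adamts13 alone was higher in both liver groups than in both lung groups. Neighbours in the order that overlapped were sham and CLP liver for Tfpi, Plau and Adamts13, and sham and CLP lung for Procr and Plau. With library totals alone, the liver order of Vwf was reversed and overlapped.

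For each of the 9 genes, the 3 genes with the most similar profile were found over the 12 libraries after the mean of each organ was taken out, among 8930 candidates. The libraries share their surgery groups, depth and scaling, so these values of Pearson's r are descriptions. Thbd was followed most closely by Atxn1 (r = 0.980), Maml3 (0.974) and Gpc4 (0.967), and F3 by Xiap (0.973), Sos1 (0.966) and Klhl5 (0.952). Procr had Tmem56 (0.985), Dusp8 (0.984) and Jun (0.984), the last a subunit of AP-1. Plaur had Glipr2 (0.995), Tfe3 (0.994) and Map4k4 (0.993), the closest matches of any of the 9. Plat had Sema7a (0.957), Vwf had Frmd6 (0.971), Tfpi had Wls (0.963) and Adamts13 had Apoe (0.918) as the closest. Plau, which did not pass the test in either organ, had the loosest match, Stk11ip (0.836).

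The remaining marker lists give the setting of these values. Beside their counts, 21.4% of all genes tested were higher and 21.0% lower in liver, and 23.9% and 24.9% in lung. In liver, 1 of 8 hepatocyte markers rose and 3 fell. Of 5 cholangiocyte markers 3 could be tested there, and all 3 rose. The others, Krt19 and Krt7, were too low in liver to be tested and did not share a clear rise. Mean Krt19 went from 0.679 to 0.519 CPM after CLP and mean Krt7 from 0.521 to 0.602 CPM, with overlap between surgeries for each. Fibroblast and smooth muscle markers had 1 higher and 1 lower of 9 in liver and of 10 in lung. Inmt, the one that fell in lung, went from 1634 to 1783 CPM in sham to 330.2 to 689.7 CPM in CLP, and the other 9 summed to 1759 to 2196 and 2037 to 2146 CPM. Alveolar type 2 markers had 1 higher and 1 lower of 8 in lung, airway epithelium 0 higher and 1 lower of 6, and mesothelium 0 higher and 2 lower of 6. Their part in the changes of the 9 genes was not tested.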

How the data were processed

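Gene-level counts, whole numbers without normalization, were deposited by the authors for stranded total RNA libraries of liver and lung (per the labels' protocols), in 1 table of 12 libraries. Per the submitters' processing notes, which list no roles or order, the build mm39 and these tools were named: FastQC, STAR 2.7.10a, featureCounts and DESeq2. Annotation release, strand setting and multi-mapping rule were not given in the sources used here. Columns were matched to libraries by library name. Symbols came from a reference table, which gave one for 52081 identifiers. No mm39 annotation was used, so positions and exon lengths are of GRCm38 and are used for sequences, ratios per base of exon and overlaps only. Replicate pairs differed by 5.28 to 37.6 chi-square per degree of freedom over genes with at least 20 counts, so none was counted as 1 library.

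The tests ran in R 4.3.3 with edgeR 4.0.16: low-count filter by group (minimum 10, total 15), scaling by the trimmed mean of M values, quasi-likelihood test with robust dispersion, and Benjamini-Hochberg adjustment over all genes tested. CLP was set against sham in the 6 libraries of each organ. The lung minus liver difference and sham lung against sham liver came from 1 model of 12 libraries with 4 group means. All p-values are two-sided. SE is the log2 fold change divided by the square root of F, an approximation. The procedure was tested on simulated data. Alternatives used DESeq2 1.42.0, limma-voom (limma 3.58.1), library totals, upper-quartile scaling, no filter, no robust dispersion, the replicate block, the model of 12 libraries, and each library left out.

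The 9 genes and all lists were chosen with earlier results of these data known. Named by rule are the 9 genes, the 3 partners per list with the lowest p in each organ, and the 3 genes most alike with a mean log2 CPM of at least 3. Of the partner lists 1 gene is not reported here.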

Additional observations from a re-analysis of the deposited data

Results flagged for a closer look

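Of the 9 genes, 5 responded differently to CLP in liver and lung by the test of the difference itself, in edgeR's quasi-likelihood model of 12 libraries with Benjamini-Hochberg adjustment. Of all 16111 genes tested for this difference, 17.7% were called in either direction. The 9 genes were chosen with earlier results of these data known. The lung minus liver difference in log2 fold change was -4.13 for Thbd, -3.82 for Procr, 2.62 for F3, -2.15 for Plaur and -0.81 for Vwf. Over the omissions of each of the 12 libraries it ran from -4.62 to -3.70 for Thbd, -4.47 to -3.36 for Procr, 2.40 to 3.31 for F3 and -0.95 to -0.70 for Vwf, and none of those calls was lost. For Plaur it ran from -2.38 to -1.82 and the call was lost without sham liver replicate 3 (-1.83, adjusted p = 0.0616).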

How the results depend on the processing

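Of 589 values of the 9 genes under other settings, 561 kept direction and call, 27 lost the call, 1 gained it and 0 reversed. Of 1311 values of the other named genes, 1238 kept both, 36 lost and 36 gained the call, and 1 reversed: S100a10, sham lung against sham liver, from -1.17 to 0.14 with library totals. With library totals 2 of the 9 genes, in place of 1, were lower in liver. Another scaling moved the split of calls: in liver from 2647 higher and 2600 lower to 1689 and 3796 with library totals (median of all genes -0.21) and 2122 and 3144 with upper-quartile scaling (-0.10), in lung from 3698 and 3850 to 2977 and 4847 (-0.13) and 2929 and 4946 (-0.14). With library totals the lung minus liver split went from 1432 and 1424 to 1861 and 965 (0.12) and the sham split from 7146 and 5875 to 11983 and 2401 (1.497). The cause was not tested.

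The replicate block gave 5245 calls in liver (5247 without), 6870 in lung (7548) and 2844 for the lung minus liver difference (2856). It ended the lung call of Procr (1.03, edgeR adjusted p = 0.0578) and no other call of the 9 genes. A block of surgery by replicate number across organs, chosen after seeing the data, gave 2901. The numbers were not taken to pair the libraries, since not every same-numbered pair deviated together above r = 0.1: r was 0.029, 0.076 and 0.049 in liver and -0.010, 0.036 and 0.036 in lung. Liver and lung libraries of the same surgery and number, which no label ties to 1 mouse, gave r of 0.107, 0.030 and 0.104 after CLP and -0.012, 0.037 and 0.057 after sham. In liver, and between CLP liver and CLP lung, each library correlated best with its own number, a hint from the data and not the design. In lung, and between sham liver and sham lung, not every library did so. Deviations were taken from means of 3 libraries, so the r values of a comparison depend on one another. Depth limits Procr and Plat in sham liver and Adamts13 in lung, at 1 to 14 counts per library. It also limits Plaur in sham liver (13, 11 and 8 counts), F3 in CLP liver (26, 9 and 9) and Plau in liver (8 to 27).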
